A study of Mus musculus with 8 samples.

Results

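Oxidative phosphorylation is carried out by 5 protein complexes of the inner mitochondrial membrane, and their nuclear-encoded subunits were followed here in the islets of mice that lack fibulin-5 in β-cells. The genes were chosen by symbol alone: every gene named Nduf, Uqcr or Atp5, the genes Sdha to Sdhd, and the Cox genes numbered 4 to 8. Of 115 such symbols in the RefSeq annotation of GRCm38, 92 were matched to a probe through its RefSeq accession, out of 22911 named genes on the array. The other 23 were 19 pseudogenes and the 4 protein-coding genes Cox5b, Ndufb1, Ndufb4b and Ndufb4c, which were not analysed here. The rule itself uses no measured value. A gene with several probes was read by its brightest probe.

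The control mice carried Fbln5 alleles in which loxP sites flank exons 1a and 1b (Fbln5-floxed mice). The βFbln5KO mice came from a cross of such mice with Ins1-Cre mice, whose Cre is driven by the mouse insulin 1 promoter. The cross is meant to delete the gene in β-cells and leave it in the other islet cells. Both groups were male littermates, 11 weeks old, and the labels give no Cre for the controls. Each of the 8 single-colour Agilent arrays, 4 per group on 1 slide, measured the RNA of 150 islets taken directly after isolation, and the number of animals behind an extraction is not given in the sources used here. Because each genotype filled 1 row of the slide, the effects of row and genotype cannot be told apart. A log2 signal of 0 is the 75th percentile of an array, and "well above background" is the call of the scanner software.

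Fbln5 itself, on chromosome 12 (101746565 to 101819119, GRCm38), was read by 1 probe. Its log2 signal was −1.70, −1.32, −2.05 and −1.83 on the control arrays and −2.74, −2.40, −2.38 and −1.37 on the arrays labelled βFbln5KO. The difference of −0.50 (SE 0.29) did not exceed the spread of the arrays (limma, adjusted p 0.342; p = 0.171 by an exact permutation test, two-sided), and the array labelled βFbln5KO replicate 4 lay in the control range. Where in the transcript the probe lies was not tested, so it is an incomplete check of the labels. Without that array the difference of Fbln5 was −0.78, given with no test because the array was singled out by its Fbln5 reading. Islet hormone genes were among the brightest on every array, with Ins2 between 8.67 and 9.13. The 10 acinar markers, genes of the digestive enzyme cells around islets, were all lower in βFbln5KO (median log2 difference −0.92, 0 past an unadjusted p of 0.05), with a summed log2 level of 10.2 to 11.5 on the control arrays and 9.53 to 10.9 on the βFbln5KO arrays. The 5 α-cell markers were also all lower (median −0.23). Of these, 1 passed an unadjusted limma p of 0.05, where 3.08% of named genes well above background on 8 arrays were lower. Of the 10 β-cell markers, 8 were lower and 2 higher (median −0.092, 0 past that p). The part of acinar RNA, or of other differences in cell make-up, in the values below was not tested. In RNA from whole islets, fewer cells of a type and less RNA per cell cannot be told apart.

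In the respiratory chain, complex I (NADH dehydrogenase) and complex II (succinate dehydrogenase) pass electrons to ubiquinone, complex III passes them on to cytochrome c, and complex IV (cytochrome c oxidase) passes them to oxygen. Complexes I, III and IV pump protons, and complex V (ATP synthase) uses the proton gradient to make ATP. In the β-cell, ATP made from glucose closes potassium channels and so triggers insulin release. The study also measured the respiration of islets from such mice and reported no significant difference in its maximum. The transcripts of the same machinery were read here, and they do not measure respiration itself.

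The oxidative phosphorylation genes did not differ detectably between the groups. All 8 arrays measured 90 of the 92 genes well above background, and their log2 differences (βFbln5KO minus control) lay between −0.27 and 0.15 with a median of −0.0035. Positive and negative differences were nearly balanced, at 44 and 46. At an adjusted limma p under 0.05, 0 of the 92 genes were called, where 0.0106% of all 56605 probes were. At an unadjusted limma p under 0.05, 1 of the 92 was higher and 0 were lower, against 16.8% and 2.68% of all named genes. That 1 gene, Cox8c, was dim, that is not well above background, on each of the 8 arrays. Among the 90 genes seen on all arrays, 0 were higher and 0 lower, against 1.01% and 3.08% of the 13650 named genes of that kind, and the smallest unadjusted limma p was 0.0509 for Cox6b2. In 0 of the 90 genes were the groups free of overlap, against 2.81% of those 13650 genes. The equal-variance test named in the study's methods placed 2 of the 92 genes (Cox6b2 and Cox8c) under an unadjusted p of 0.05, where 18.3% of all named genes lay, and 0 under an adjusted one. Without the array labelled βFbln5KO replicate 4, the differences of the 90 genes lay between −0.28 and 0.23 with a median of 0.0054, and 0 were higher or lower at an unadjusted limma p under 0.05. Of all 92 genes 2 were then higher at that p, the dim genes Cox8b and Cox8c, and 0 lower, against 19.1% and 2.74% of all named genes. Without βFbln5KO replicate 3, 2 of the 90 genes passed an unadjusted limma p of 0.05 and 0 an adjusted one. Ndufa9, a complex I subunit, was then higher by 0.14 (unadjusted p 0.0336) and Cox6b2 lower with −0.35 (unadjusted p 0.0221), against 0.821% and 2.88% of the 13650 genes. Without control replicate 2, 1 of the 90 did, Cox6b2 with −0.31 (unadjusted limma p 0.0492), where 4.04% of those genes were lower. These 2 omissions were picked out after their values were seen. The array βFbln5KO replicate 3 held the highest βFbln5KO reading of Cox6b2 and the lowest of Ndufa9, and control 2 the lowest control reading of Cox6b2. With each other single array left out, only the dim genes Cox8b or Cox8c passed an unadjusted limma p of 0.05.

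**Figure D1:**
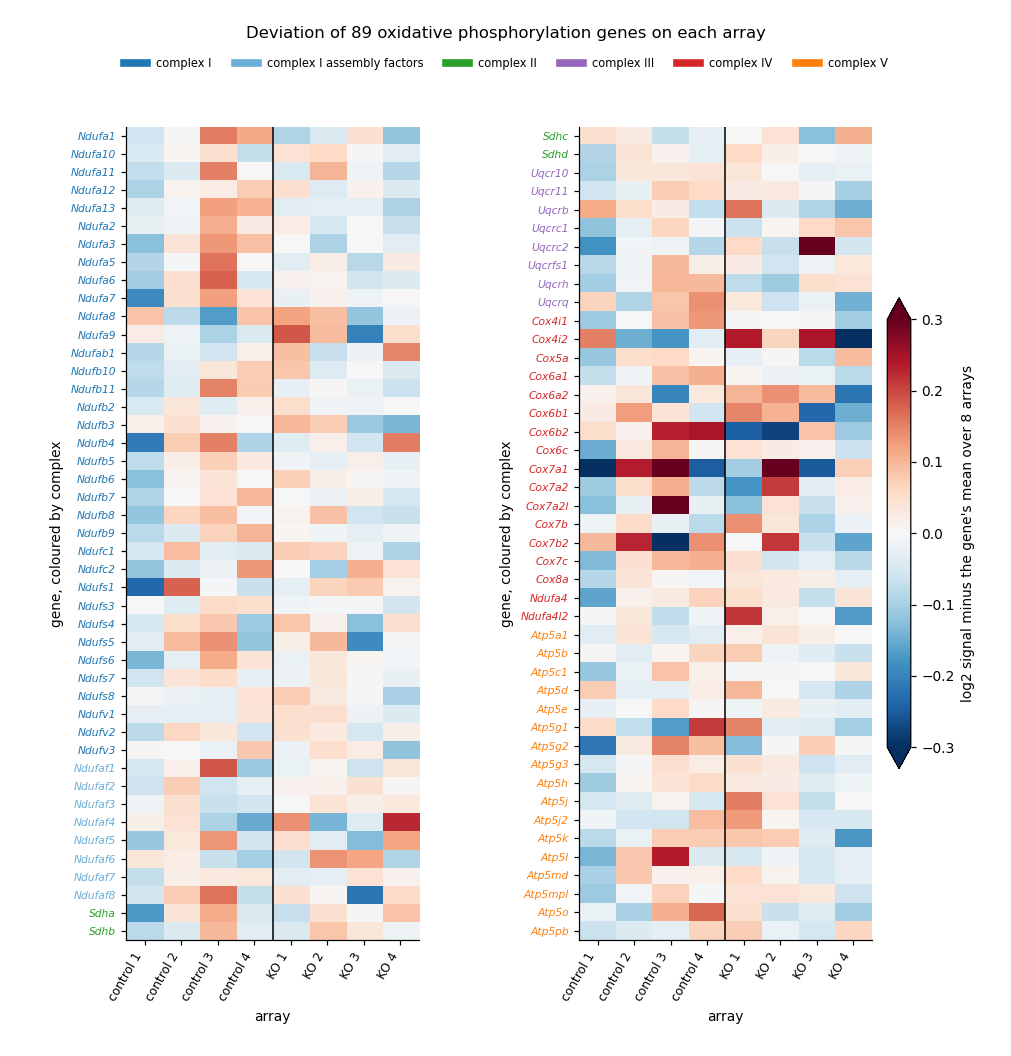
Heat map of 89 of the 90 oxidative phosphorylation genes well above background on all 8 arrays. Each row is a gene, each column an array (4 control, then 4 βFbln5KO, written KO), and the colour is the log2 signal minus the mean of that gene over the 8 arrays, from −0.3 to 0.3. Most cells are pale, the control 1 column is mostly blue, and no row changes colour cleanly at the line between the groups.

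How large a difference the arrays leave possible is given by the 95% intervals of the limma fit. For 79 of the 92 genes (85.9%) the interval lay within a 1.2-fold change in either direction, for 15 within 1.1-fold and for 90 within 1.5-fold. Of the 8 tissue-restricted isoforms of complex IV, which include Cox6b2, Cox7a1, Cox7b2 and Cox4i2, 1 lay within 1.2-fold. The outermost bounds of the 90 genes seen on all arrays were −0.55 and 0.48 on the log2 scale. These genes were measured with little scatter: the SD between arrays within a group was 0.080 in the median, against 0.128 for all genes seen on 8 arrays and 0.102 for those with a mean log2 signal over 2. Oxidative phosphorylation genes were bright, and 73 of the 92 (79.3%) had a mean log2 signal over 2, as did 17.7% of all named genes. Among the other 3971 genes above that level on 8 arrays, 69.6% had an interval within 1.2-fold.

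**Figure D2:**
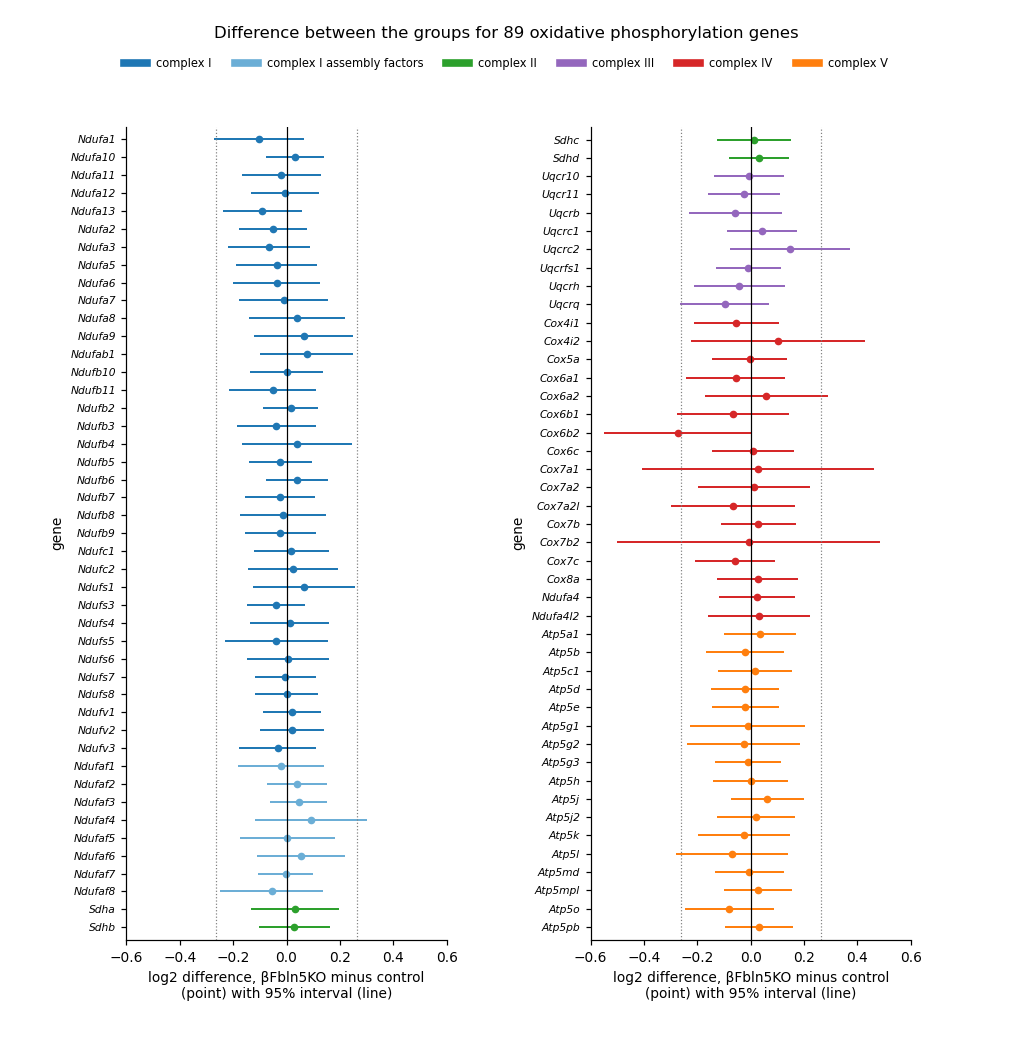
Difference between the groups for 89 of the 90 genes. The horizontal axis is the log2 difference (βFbln5KO minus control), points are the limma estimates, lines are 95% intervals, and dotted lines mark a 1.2-fold change. All 89 intervals include 0, and the widest belong to the complex IV isoforms Cox7b2, Cox7a1 and Cox4i2.

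Complex I, the largest of the complexes, was measured by 36 subunits, whose differences lay between −0.10 (Ndufa1) and 0.075 (Ndufab1) with a median of −0.0055. Its N module takes electrons from NADH through the flavin of Ndufv1. Ndufv1 had a log2 signal of 4.06, 4.06, 4.06 and 4.13 on the control arrays and 4.14, 4.14, 4.07 and 4.05 on the βFbln5KO arrays. The groups overlapped, and the difference was 0.020 (95% interval −0.085 to 0.13). Ndufs1, the iron-sulphur subunit that carries the electrons onward, read 3.32, 3.73, 3.55 and 3.48 in control and 3.52, 3.62, 3.63 and 3.56 in βFbln5KO. Its lowest array was a control array and its highest another one, and the difference was 0.065 (SE 0.082, adjusted p 0.725 in limma). Over the 10 subunits of the N module the differences ranged from −0.050 to 0.065, and for all 10 the interval lay within 1.2-fold. Ndufv2, an iron-sulphur partner of Ndufv1, had a difference of 0.021.

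The Q module hands the electrons to ubiquinone. Its subunits Ndufs3, Ndufs7 and Ndufs8 had differences of −0.038, −0.0041 and 0.00061. The 21 other subunits, mostly of the membrane arm, ranged from −0.10 to 0.075. Ndufa1, a small membrane subunit encoded on the X chromosome, had the most negative difference of complex I. It read 5.62, 5.68, 5.84 and 5.80 in control and 5.59, 5.64, 5.73 and 5.56 in βFbln5KO, with overlap between the groups (difference −0.10, SE 0.073, adjusted p 0.460 in limma). The 8 assembly factors, proteins that build complex I without staying in it, had a median difference of 0.021, from −0.056 (Ndufaf8) to 0.092 (Ndufaf4).

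Complex II has 4 subunits, all of them encoded in the nucleus, and it is also the enzyme of the citric acid cycle that oxidises succinate. All 4 differences were positive but small, from 0.012 to 0.032. Sdha, the flavoprotein, read 4.17, 4.38, 4.45 and 4.29 in control and 4.27, 4.38, 4.34 and 4.42 in βFbln5KO. Sdhb, the iron-sulphur subunit, read 4.23, 4.27, 4.41 and 4.28 in control and 4.27, 4.40, 4.35 and 4.30 in βFbln5KO. In both genes the highest array was a control array, so the groups overlapped. The membrane anchors Sdhc and Sdhd had differences of 0.012 (95% interval −0.12 to 0.15) and 0.032 (95% interval −0.076 to 0.14).

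Complex III was measured by 8 subunits with a median difference of −0.018. Uqcrc2, a core protein of the complex, had the largest positive difference of the 90 genes, 0.15 (95% interval −0.076 to 0.37; limma, adjusted p 0.432; p = 0.229 by the exact permutation test). It read 4.17, 4.34, 4.33 and 4.26 in control and 4.41, 4.28, 4.70 and 4.29 in βFbln5KO. A single array, βFbln5KO replicate 3, lay far above the other 7, and 2 of the 4 βFbln5KO arrays lay within the control range. Its partner Uqcrc1 had a difference of 0.043. Uqcrfs1, the Rieske iron-sulphur protein, read 3.53, 3.60, 3.71 and 3.63 in control and 3.63, 3.55, 3.59 and 3.64 in βFbln5KO (difference −0.0093). Uqcrq was at the other end with −0.098 (SE 0.072, adjusted p 0.484 in limma).

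Complex V was measured by 17 subunits, from −0.080 (Atp5o) to 0.062 (Atp5j), with a median of −0.0089. The catalytic part was evenly measured. Atp5a1, the α subunit, read 6.0001, 6.0735, 5.9850 and 5.9989 in control and 6.0484, 6.0712, 6.0495 and 6.0324 in βFbln5KO. Its SD between arrays, 0.030, was the smallest of the 92 genes, and its difference was 0.036 (95% interval −0.095 to 0.17). Atp5b, the β subunit that makes ATP, read 6.072, 6.038, 6.074 and 6.135 in control and 6.145, 6.054, 6.032 and 6.001 in βFbln5KO, a difference of −0.022. The c subunit, which forms the rotating ring in the membrane, is encoded by Atp5g1, Atp5g2 and Atp5g3, whose differences were −0.012, −0.027 and −0.0089. Atp5g1 spread most of them, with 4.96, 4.83, 4.74 and 5.11 in control and 5.05, 4.87, 4.86 and 4.80 in βFbln5KO.

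**Figure D3:**
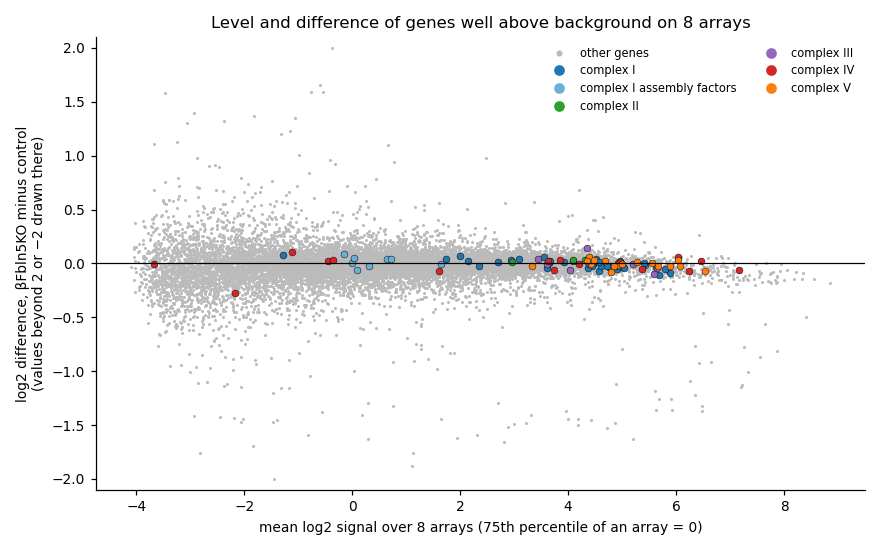
Level and difference of the named genes well above background on all 8 arrays. The horizontal axis is the mean log2 signal over the 8 arrays, the vertical axis the log2 difference (βFbln5KO minus control), grey points are 13560 other genes and coloured points the 90 oxidative phosphorylation genes by complex, with 2 grey points drawn at the limit of the axis. The coloured points lie in a narrow band around 0, most of them at high signal, and Cox6b2 lies lowest at −0.27.

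The sign of the small differences varied with the level of the signal. The 24 oxidative phosphorylation genes with a mean log2 signal over 5 had a median difference of −0.030, and 6 of the 24 were positive. The other 429 genes above that level had a median of −0.056, with 22.6% positive. At lower levels, 11 of the 17 genes with a mean up to 2 were positive (median 0.030), as were 12 of the 17 between 2 and 4 (median 0.015) and 15 of the 32 between 4 and 5 (median −0.0036). The other genes of these 3 levels had medians of −0.011, 0.0013 and −0.0067, with 46.2%, 51% and 45% positive. With quantile normalization the median difference of the 92 genes was 0.037 in place of −0.0014.

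Several subunits of cytochrome c oxidase have alternative isoforms, some of them known from heart and skeletal muscle, lung or testis. Cox4i1, a regulatory subunit, read 5.26, 5.37, 5.46 and 5.50 in control and 5.37, 5.37, 5.38 and 5.27 in βFbln5KO (difference −0.054, SE 0.069, adjusted p 0.726 in limma). Cox5a read 4.09, 4.26, 4.26 and 4.21 in control and 4.18, 4.21, 4.12 and 4.30 in βFbln5KO, a difference of −0.0032. In both, control 1 was the lowest array. Cox6a1, Cox6b1, Cox7a2, Cox7b and Cox8a had differences of −0.056, −0.066, 0.013, 0.029 and 0.027, and Ndufa4, a complex IV subunit in spite of its name, had 0.024. Cox7a2l, related to Cox7a2 and known to join complexes III and IV in supercomplexes, had −0.066, and its reading of 6.54 on control 3 stood above its other 7 readings, which lay between 6.12 and 6.28.

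Among the 8 genes of tissue-restricted isoforms, 6 were well above background on every array. Cox6a2, the heart and muscle form of Cox6a, was one of them, and read 6.04, 6.06, 5.83 and 6.06 in control and 6.13, 6.17, 6.12 and 5.81 in βFbln5KO. In each group 1 array stood below the other 3, and the difference was 0.058 (95% interval −0.17 to 0.28). Without the array labelled βFbln5KO replicate 4, the low array of its group, it was 0.14 (95% interval −0.057 to 0.34). Of the 6 muscle markers, 4 were dim on all 8 arrays, and the summed log2 level of the list was −0.50 to −0.20 in control and −0.76 to −0.18 in βFbln5KO. Cox7a1, the muscle form of Cox7a, read −0.85, −0.22, −0.10 and −0.70 in control and −0.56, −0.12, −0.70 and −0.38 in βFbln5KO. It had the largest SD of the 90 genes, 0.313, and the βFbln5KO readings lay inside the control range. Cox4i2, known as the lung form, read −0.96, −1.25, −1.29 and −1.14 in control and −0.87, −1.04, −0.86 and −1.45 in βFbln5KO. Its difference of 0.10 (SE 0.14) was within the spread, since the lowest of the 8 arrays was βFbln5KO replicate 4. Without that array it was 0.23 (95% interval −0.0035 to 0.47), and the other 3 βFbln5KO readings lay above 3 of the 4 control readings. Ndufa4l2, a paralogue of Ndufa4 known from the response to low oxygen, had 0.030 and Cox7b2 had −0.0078 (95% interval −0.50 to 0.48).

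Cox6b2, the testis form of Cox6b, had the largest negative difference of the 90 genes. It read −2.11, −2.15, −1.93 and −1.92 in control and −2.41, −2.44, −2.08 and −2.28 in βFbln5KO. On 3 of the 4 βFbln5KO arrays it was below every control array, and βFbln5KO replicate 3 lay inside the control range. The difference was −0.27 (95% interval −0.55 to 0.0014), and the adjusted limma p was 0.205 (p = 0.086 by the exact permutation test). Cox6b1, the widely used form, had −0.066 with readings of 1.64, 1.74, 1.66 and 1.56 in control and 1.76, 1.72, 1.38 and 1.47 in βFbln5KO. Whether the 2 forms differed in their change was not tested.

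Cox8b and Cox8c, the muscle and testis forms of Cox8, were the 2 genes dim on every array, so no fold is given for them. Cox8c read −6.94, −6.84, −7.07 and −6.84 in control and −6.25, −6.27, −6.50 and −6.50 in βFbln5KO (limma, adjusted p 0.0728 and unadjusted p 0.0025; p = 0.029 by the exact permutation test, the smallest that 4 against 4 arrays allow). Every βFbln5KO reading was above every control reading, all of them under the lowest signal called well above background, which was −5.01 to −4.79 on the control arrays and −4.70 to −4.19 on the βFbln5KO arrays. The groups were likewise free of overlap, in either direction, in 4084 of the 22911 named genes. At an unadjusted limma p under 0.05, 16.8% of the named genes were higher. Without the array labelled βFbln5KO replicate 4 its adjusted limma p was 0.0053, in a fit that called 11206 probes higher and 338 lower. Cox8b read −6.87, −6.52, −7.12 and −6.89 in control and −6.27, −4.57, −6.30 and −6.74 in βFbln5KO. Its spread in βFbln5KO came from replicate 2, and its adjusted limma p was 0.255 with all arrays and 0.131 (unadjusted p 0.0315) without replicate 4. Fewer spots were well above background on each βFbln5KO array (31214 to 33549) than on each control array (33592 to 34889), and more were marked as outliers (176 to 398 against 125 to 175). The part of these differences between arrays in the readings of dim genes was not tested.

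**Figure D4:**
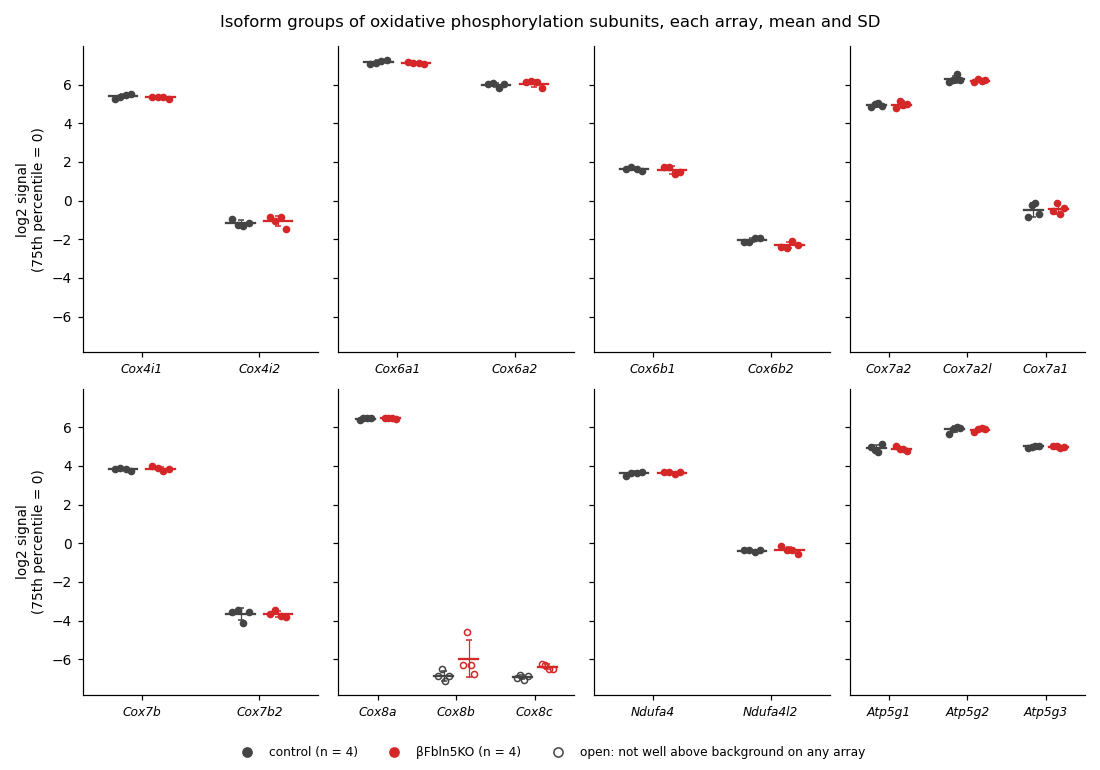
Log2 signal of the isoform groups of complexes IV and V. Points are single arrays (control in grey, βFbln5KO in red), bars are means, error bars are SDs (n = 4), and open points mark genes not well above background on any array. The groups of most genes lie beside each other at nearly the same height, with larger differences for Cox6b2 (−0.27) and for the 2 genes with open points, Cox8b and Cox8c. Heights of different genes come from different probes and are not comparable.

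The genes shifted together on single arrays, and the widest of these shifts were within the control group. The median deviation of the 90 genes from their own means was −0.072 on control 1, 0.0097 on control 2, 0.049 on control 3 and 0.012 on control 4. On the βFbln5KO arrays it was 0.024, 0.015, −0.019 and −0.026. On control 1, 70 of the 90 genes were below their own mean, and on control 3, 63 were above it, so the lowest and the highest array belonged to the same group. All genes seen on 8 arrays moved the same way on those arrays, with −0.047 on control 1 and 0.042 on control 3. On the 4 βFbln5KO arrays the sign differed between the 2 sets: all genes stood at −0.042, −0.0085, 0.0086 and 0.0062 there. In complex V, 14 of 17 genes were below their means on control 1, on βFbln5KO replicate 3 and on βFbln5KO replicate 4. Without control 1 the median difference of the 92 genes was −0.027, and without control 3 it was 0.013.

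**Figure D5:**
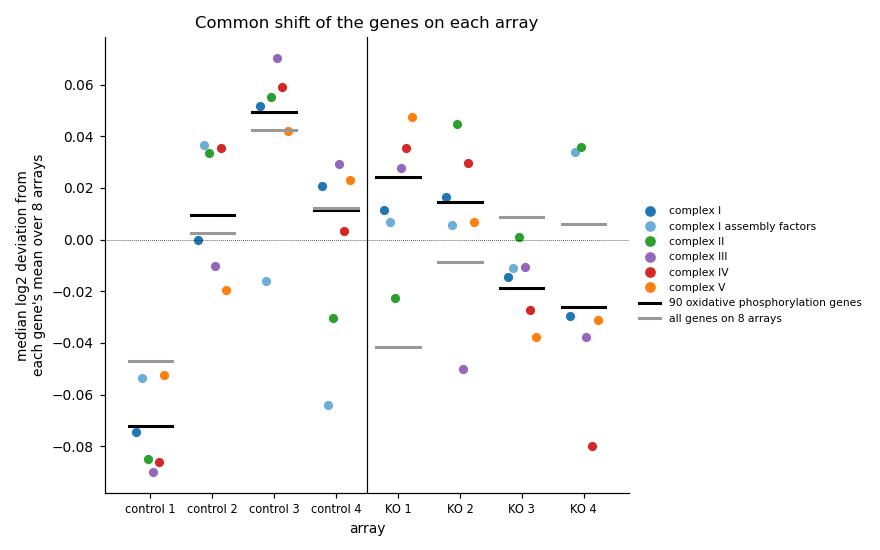
Common shift on each array. The vertical axis is the median, over the genes of a complex, of the log2 deviation from each gene's mean over 8 arrays, with black bars for all 90 oxidative phosphorylation genes and grey bars for all named genes seen on 8 arrays. The black bars run from −0.072 on control 1 to 0.049 on control 3, and the βFbln5KO arrays lie between them.

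The 92 genes were covered by 114 probes, and 20 of the genes had more than 1 probe. At an unadjusted limma p under 0.05, 2 of these 22 other probes were higher and 0 lower, against 16.8% and 2.68% of all named genes by their brightest probes. At an adjusted one 0 passed, where 0.0106% of all 56605 probes did. The differences of the 22 had a median of 0.034, from −0.11 (Uqcr10, whose brightest probe had −0.0066) to 0.88. Among the 21 of them well above background on 8 arrays, 1 was higher, against 0.853% of all such probes for higher and 5.42% for lower. Both exceptions were picked out after their values were seen. The second probe of Ndufaf5, an assembly factor of complex I, read −1.76, −1.72, −1.67 and −1.71 in control and −1.52, −0.15, −0.80 and −0.86 in βFbln5KO (difference 0.88, SE 0.24, adjusted p 0.0728 in limma), while the brightest probe of the gene had a difference of 0.0027. All 4 βFbln5KO arrays were higher with the second probe, and it lies in spot row 4 of 384, while the brightest probe lies in row 180. The other 4 probes of oxidative phosphorylation genes in rows 1 to 4, those of Sdhb, Ndufb6, Atp5h and Atp5g2, had differences of 0.19, 0.040, 0.016 and −0.027. The other exception, the second probe of Ndufa7, was dim on all 8 arrays. The second probes of Sdha and Sdhb had differences of 0.14 and 0.19 (unadjusted limma p 0.0909 and 0.0765), and the dimmest of the 3 probes of Atp5h had 0.22 (unadjusted limma p 0.0739), where their brightest probes had 0.032, 0.029 and 0.00030. These 3 were named for their small p. Other second probes were negative, among them those of Uqcrb, Atp5md, Atp5o and Ndufa3 with −0.035, −0.020, −0.019 and −0.0080.

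Genes that serve the same complexes under other symbols were read from a list of assembly factors, electron carriers, coenzyme Q genes and regulators. Of its 68 genes 67 were measured and 65 were well above background on 8 arrays. Their median difference was 0.023, and at an unadjusted limma p under 0.05 there was 1 higher gene and 0 lower ones (16.8% and 2.68% of all named genes), with 0 at an adjusted one. The 1 gene, Lyrm7, which helps to build complex III, was dim on every array, and no fold is given. The electron carriers and Cyc1, the cytochrome c1 of complex III, lay between −0.035 and 0.064. The 21 assembly factors of complex IV had a median of 0.015, the 12 genes of coenzyme Q synthesis 0.032 and the 9 regulators of respiratory chain genes 0.022. Among the regulators, Nrf1, Gabpa, Yy1 and Esrra, which encode transcription factors known to act on respiratory chain genes, had differences of 0.036, −0.033, −0.029 and 0.033. Tfam, the packaging factor of mitochondrial DNA, had 0.087 (95% interval −0.046 to 0.22). The study reported its mRNA as not altered, by PCR in incubated islets. The coactivator gene Ppargc1b had the largest difference of the 9, −0.21 (95% interval −0.46 to 0.043, unadjusted limma p 0.0929).

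The genes are scattered over 19 chromosomes, with no more than 9 on any of them. Their promoters were read for motifs of factors known to act on respiratory chain genes. RefSeq promoters (GRCm38.p6, 250 bases before to 50 after a transcript start) were at hand for 75 of the 92 genes, 80 promoters in all. They were read on both strands beside all 32851 such promoters. The letters GCGCATGCG, part of the motif of NRF1, stood in 12.5% of the 80 promoters and in 1.75% of all promoters. TGCGCA, which overlaps that motif, stood in 23.8% and 7.76%. The ETS core CCGGAAG, read by GABPA, stood in 23.8% and 8.86%, and AAGATGGC, a YY1 motif, in 13.8% and 2.75%. AAGGTCA, read by oestrogen-related receptors, stood in 10% and 4.72%, the GC box GGGCGG in 45% and 35.7%, and TATAAA in 11.2% and 13.6%. The promoters of these genes were rich in CpG, with a median of 19.5 per 300 bases against 7, and a match is a description of letters, not a site of binding. The 200 bases before the start are given for 3 genes with several of these letters, 1 each of complexes IV, V and II, to show how the motifs lie, with each match on either strand in capitals. Cox6a1 is at chr5:115348959-115349158, Atp5g2 at chr15:102671048-102671247 and Sdhd at chr9:50603850-50604049, all on the minus strand and written in the direction of the gene.
Cox6a1: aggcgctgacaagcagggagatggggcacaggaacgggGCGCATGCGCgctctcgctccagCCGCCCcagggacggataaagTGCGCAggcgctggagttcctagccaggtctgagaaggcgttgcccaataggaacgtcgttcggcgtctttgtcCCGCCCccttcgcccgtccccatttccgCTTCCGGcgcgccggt
Atp5g2: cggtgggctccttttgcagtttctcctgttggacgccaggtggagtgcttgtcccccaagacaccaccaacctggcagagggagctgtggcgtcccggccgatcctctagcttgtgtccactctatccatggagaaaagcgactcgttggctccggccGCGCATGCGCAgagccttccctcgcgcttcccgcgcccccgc
Sdhd: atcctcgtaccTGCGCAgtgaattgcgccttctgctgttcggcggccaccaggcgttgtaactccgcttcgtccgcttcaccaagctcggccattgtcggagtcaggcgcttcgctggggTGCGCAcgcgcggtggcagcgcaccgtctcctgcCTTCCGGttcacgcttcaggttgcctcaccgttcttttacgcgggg

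In the Cox6a1 stretch the capitals hold the NRF1 letters, TGCGCA, 2 GC boxes and the ETS core, and in Atp5g2 the NRF1 letters run into TGCGCA. Sdhd holds TGCGCA in 2 places and the ETS core nearer to the start. The differences of the 3 genes were −0.056, −0.027 and 0.032.

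Promoters of paralogous isoforms differed in CpG content, and 2 such pairs are printed because 1 gene of each is a widely used subunit and the other a muscle form. Capitals mark each CpG in the 150 bases before the transcript start of the RefSeq table, which for Cox7a2 lies inside the gene (chromosome 9, 79755241 to 79771422). Cox8a lies at chr19:7217617-7217766 (minus strand), Cox8b at chr7:140900447-140900596 (minus strand), Cox7a2 at chr9:79759854-79760003 (minus strand) and Cox7a1 at chr7:30184021-30184170 (plus strand).
Cox8a: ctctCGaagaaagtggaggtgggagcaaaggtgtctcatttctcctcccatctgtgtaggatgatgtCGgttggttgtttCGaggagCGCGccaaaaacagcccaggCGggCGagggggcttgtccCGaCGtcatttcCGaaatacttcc
Cox8b: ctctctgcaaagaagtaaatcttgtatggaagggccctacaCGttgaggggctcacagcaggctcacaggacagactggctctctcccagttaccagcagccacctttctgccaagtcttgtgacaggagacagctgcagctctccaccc
Cox7a2: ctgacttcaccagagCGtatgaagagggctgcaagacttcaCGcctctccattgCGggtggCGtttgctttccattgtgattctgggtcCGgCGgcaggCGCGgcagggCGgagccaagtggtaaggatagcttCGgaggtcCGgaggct
Cox7a1: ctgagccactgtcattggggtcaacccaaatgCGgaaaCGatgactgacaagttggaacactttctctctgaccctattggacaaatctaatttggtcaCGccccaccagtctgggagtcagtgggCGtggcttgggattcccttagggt

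Over the whole 300 bases, Cox8a had 19 CpG and Cox8b had 2, and Cox7a2 had 20 and Cox7a1 had 7. Of the 2 other pairs of a widely used and a tissue-restricted complex IV form with both promoters at hand, Cox6b1 had 17 and Cox6b2 had 10, while Cox7b had 5 and Cox7b2 had 10, the opposite order. Cox8a was well above background on all 8 arrays, with 6.38, 6.50, 6.47 and 6.46 in control and 6.50, 6.49, 6.48 and 6.43 in βFbln5KO, while Cox8b was dim on all of them. Both Cox7a2 and Cox7a1 were well above background on every array.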

How the data were processed

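Islet RNA of 4 control and 4 βFbln5KO samples was measured on single-colour arrays. Per the paper's methods and the labels, the authors used Feature Extraction 11.0.1.1 with default parameters (background subtraction and spatial detrending) and GeneSpring. The deposited processed signal is an intensity, not normalized between arrays. A further deposited table gives, for 35553 probes, that signal as a ratio to 1 number per array (99.2% of values within 0.01%). It served as an alternative. The 75th percentile of the signals was 709 to 1012 in control and 910 to 1055 in βFbln5KO, 33592 to 34889 and 31214 to 33549 spots per array were well above background, and 0 were saturated. The number of arrays limits the precision.

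The log2 signals of the 59305 spots other than controls were reduced by the 75th percentile of their array, without values marked as outliers, and averaged over the spots of a probe, which gave 56605 probes, 32994 of them named through RefSeq accessions. The groups were compared with limma 3.58.1 (lmFit, eBayes with trend) in R 4.3.3, and p-values were adjusted by Benjamini-Hochberg over the 56605 probes (threshold 0.05). Intervals are 95% intervals of that fit, and single genes were also read by an exact two-sided permutation test. Nothing in the labels says that the extractions came from separate animals, so the p-values measure the spread between these samples. Figures were drawn with matplotlib 3.10.9. The values of 1 gene are not reported here, though it is counted in the totals.

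The genes, lists and motifs were chosen with earlier results of these data known. Named with values were genes with an unadjusted p under 0.05, the catalytic and redox subunits, the isoform groups, genes dim on every array, and listed pathway genes with an unadjusted p under 0.05. The ends of a complex's range, other probes, regulators and Ins2 were added after their values were seen. The alternatives were normexp (offset 50, on the median signal), quantile normalization, median scaling, probes well above background on 4 or more arrays only, dim signals raised to a floor, the deposited table, outliers kept, eBayes run without trend, the methods' t-test, the mean over a gene's probes, a replicate block, and leaving out single arrays.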

Additional observations from a re-analysis of the deposited data

Results flagged for a closer look

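Among 72 groups of 4 arrays, formed by 36 genes in both genotypes, 5 held an array that stood apart from the other 3, and chance gives about 1 in 20. The measure is the gap of the highest or lowest array to its neighbour divided by the range of the group, set against Dixon's 95% limit for 4 values. The ratio was 0.922 for Ndufv1 in control, where control 4 read 4.13 and the others 4.06. It was 0.906 for Cox4i1 in βFbln5KO, where replicate 4 read 5.27, and 0.8294 for Atp5a1 in control, where control 2 read 6.07. Cox6a2 stood out in both groups, with 0.904 in control (control 3 at 5.83) and 0.881 in βFbln5KO (replicate 4 at 5.81).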

How the results depend on the processing

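With 4 arrays per group, the 95% intervals of 79 of 92 genes lay within 1.2-fold and those of 15 within 1.1-fold, and the 2 genes dim on every array have no level. The count of genes called at an adjusted p of 0.05 was 0 in the main comparison and 1, Cox8c, with eBayes without trend, where 6184 probes were called higher and 394 lower. With single arrays left out it ranged from 0 to 1. The 1 was again Cox8c, without the array labelled βFbln5KO replicate 4. At an unadjusted p, 1 gene was higher (Cox8c), against 16.8% of all named genes. This was 0 with normexp, with quantile normalization, with the filter on dim probes, with the floor and in the deposited table, which holds 89 of the genes (0.742% to 1.92% of all named genes), 3 with the mean of all probes (Cox8c, Ndufa7 and Ndufaf5, against 17.6%) and 1 to 2 with single arrays left out (15.8% to 19.1%). The count of lower genes at an unadjusted p was 0, but 1, Cox6b2, with the filter, with eBayes without trend, with the methods' t-test, with the mean of all probes and in the deposited table (2.6% to 3.56% of all named genes), and 0 to 1 with single arrays left out (1 without control replicate 2 and 1 without βFbln5KO replicate 3, against 3.5% and 2.34%). The median difference was −0.0014, 0.037 with quantile normalization and −0.027 to 0.013 with single arrays left out, where the SD of the single-array medians within a group was 0.040. The deviations of same-numbered samples had correlations of both signs (r = 0.200, 0.295, −0.225 and −0.022). Whether the numbers pair the samples cannot be decided from these values, since paired samples need not deviate together. With the replicate number as a block, 0 genes were called at an adjusted p, and 2 were higher at an unadjusted p (Cox8b and Cox8c, against 14.7%). Of 679 comparisons of single genes with an alternative, 664 stayed within the spread between arrays, 13 moved beyond it and 2 passed the adjusted threshold (Cox8c). The sign changed in 77 of them, with 11 of 36 genes each under normexp and quantile normalization. The cause of these changes was not tested.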
